A study of Rattus norvegicus with 4 samples.

Results

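The genes described here are *Gsk3a* and *Gsk3b*, the scaffold genes *Axin1*, *Axin2* and *Apc*, the effector *Ctnnb1* and the transcription factor genes *Tcf7*, *Tcf7l1*, *Tcf7l2* and *Lef1*. They were chosen by name, and 9 of the 10 names were matched among the 34773 genes of the count table. All 9 matched genes passed the filter on low counts, and *Axin1* was not analysed here. The libraries were made from poly(A) RNA of rat embryonic stem cells (ESCs): 1 library of DA-5-3GFP, labelled WT, which is the ESC line DA-5-3 with a *Rex1*-GFP reporter, and 1 library of each of 3 *Thop1*-KO subclones (#1, #2 and #3). The subclones were made from DA-5-3GFP with Cas9, so they share the reporter, and each is a single clone. *Thop1* encodes thimet oligopeptidase, an enzyme that cleaves short peptides. The study describes the DA-5-3 line as diploid, whereas the series' own design text speaks of haploid cells. The study's culture methods describe feeder cells and a medium with LIF and 2 inhibitors, PD0325901 against MEK and CHIR99021 against GSK3. If these cells were cultured in it, the kinases encoded by *Gsk3a* and *Gsk3b* were inhibited in both genotypes.

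In the canonical Wnt pathway, a destruction complex built on Axin and APC holds GSK3 and casein kinase 1 beside beta-catenin, which they phosphorylate so that it is degraded. Wnt ligands, or an inhibitor of GSK3, let beta-catenin accumulate and enter the nucleus, where it binds the factors of the TCF/LEF family. In mouse ESCs, TCF7L1 represses genes of the naive pluripotency network, and inhibition of GSK3 relieves that repression through beta-catenin. The pathway is controlled largely at the level of protein, and the libraries measured transcripts only.

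Total counts were between 15405499 and 17936544 per library, and every pair of libraries differed by more than counting noise. Fold changes are of *Thop1*-KO over DA-5-3GFP. The transcript of the targeted gene had 1843 counts in #1, 1635 in #2 and 2680 in #3, against 5500 in DA-5-3GFP. *Thop1* was lower in all 3 subclones, with a log2 fold change of -1.66 ± 0.29 (SE, edgeR adjusted p = 0.0187). The ESC marker *Pou5f1*, which encodes OCT4, was at 3889 to 4842 CPM (a library-scaled count, normalized by TMM) in the subclones and at 4794 CPM in DA-5-3GFP. Of 8 ESC markers tested, 3 were called, *Fgf4* as higher in the subclones and *Dppa5* and *Utf1* as lower (named after their values were seen), where 13.8% of all genes tested were called in either direction. DA-5-3GFP has 1 library, so the spread behind each test came from the 3 subclones, and a difference between genotypes cannot be told apart from a difference of that single culture or library. Permuting 1 library against 3 exactly and one-sided gives p = 0.25 at best, so the adjusted p-values depend on the variance that edgeR models. In these bulk samples, fewer cells that express a gene and less RNA per cell cannot be told apart.

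Of the 9 genes, *Ctnnb1* and *Gsk3a* were higher in the *Thop1*-KO subclones and none was lower, by edgeR's quasi-likelihood test at an adjusted p-value under 0.05 over all 15028 genes tested. The other 7 did not pass. An unadjusted p-value under 0.05 was reached by 4 of the 9, 3 of them higher (*Ctnnb1*, *Gsk3a* and *Tcf7*) and 1 lower (*Lef1*), against 5110 of all 15028 genes tested. DESeq2 called 3 of the 9 higher and none lower, where 21.3% of all genes with an adjusted p were called. Over all genes tested, 13.8% were called in either direction, 8.62% as higher and 5.17% as lower. The median log2 fold change was 0.20 over the 9 genes and 0.06 over all genes tested. For 4 of the 9 genes DA-5-3GFP was lower than every subclone, for 3 it was higher than every subclone, and for 2 it was inside their range. Over all genes tested, it lay below in 38.1% and above in 37.6%, that is outside the range of the subclones in 75.7%, so the 7 of 9 seen here is near the background.

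**Figure D1:**
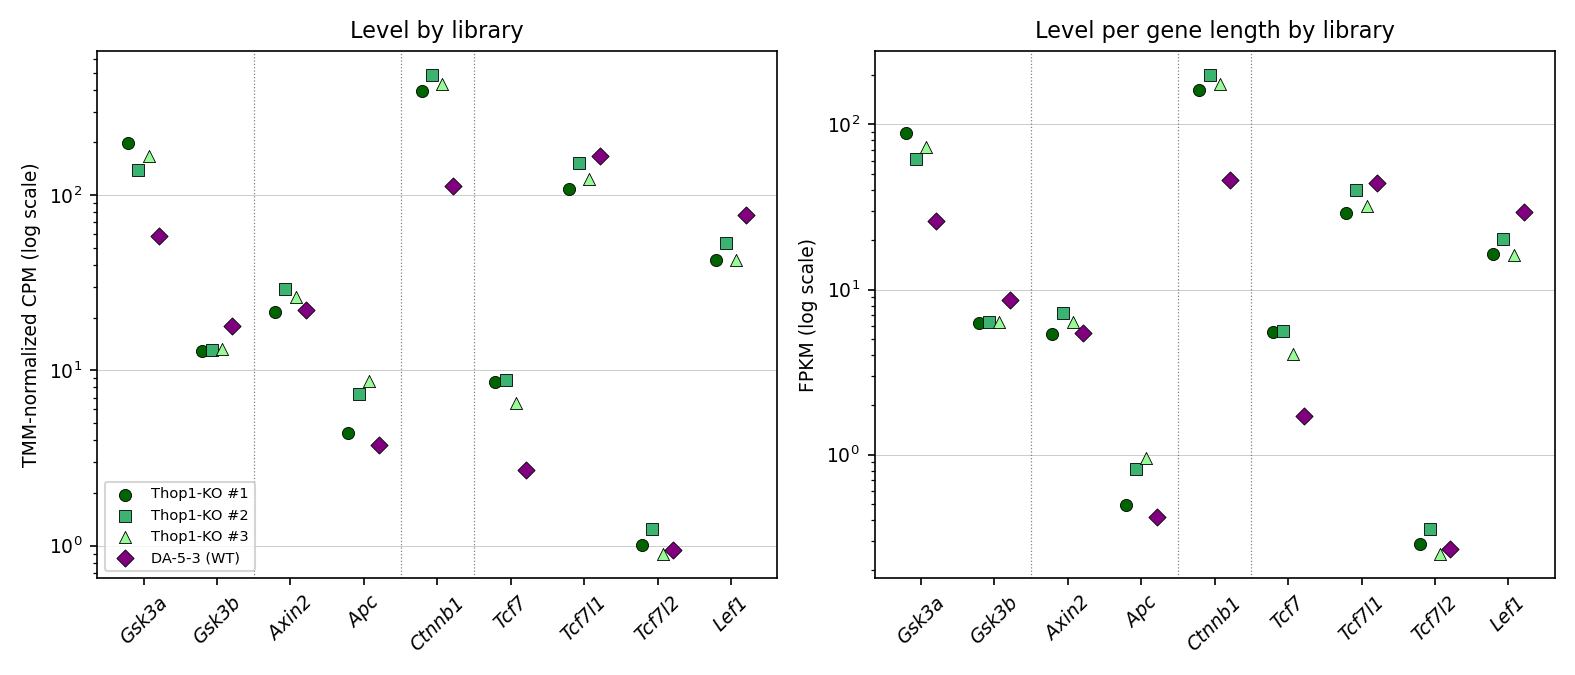
Level of each gene in each library as TMM-normalized CPM (left) and as the deposited FPKM, a level per gene length (right), both on log axes, with 1 marker per library. The diamonds of DA-5-3GFP sit clearly under the subclones for *Ctnnb1*, *Gsk3a* and *Tcf7*, and over them for *Gsk3b*, *Tcf7l1* and *Lef1*.

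*Gsk3a* encodes GSK3 alpha, and *Gsk3b* encodes GSK3 beta, the closely related serine/threonine kinases that phosphorylate beta-catenin in the destruction complex. *Gsk3a* (ENSRNOG00000020417) is a protein-coding gene of chromosome 1 that runs along the minus strand between 82097247 and 82108203, as the deposited annotation places it. Its counts were 3316 in #1, 2449 in #2, 2989 in #3, against 873 in DA-5-3GFP, which are 198, 139, 166 and 58.7 CPM. Every subclone was above DA-5-3GFP, and the subclones differed among themselves by at most 1.43-fold. The mean of the subclones was 168 ± 29.6 CPM (SD, n = 3), 2.85 times the DA-5-3GFP level. The log2 fold change was 1.51 ± 0.30 (SE), with a 95% interval from 0.79 to 2.24 and an edgeR adjusted p of 0.0271. Without #3, the call was lost (adjusted p = 0.093), but the log2 fold change hardly moved, at 1.52 ± 0.43 (SE). Calls over all genes fell in that setting as well, from 2072 to 457. Without #1 or #2 the call of *Gsk3a* was kept. *Gsk3a* overlaps *Zfp526* on the opposite strand, which had at most 444 counts in a library, and the library kit was not described as marking the strand, so reads in the overlap are uncertain.

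*Gsk3b* (ENSRNOG00000002833, minus strand of chromosome 11, 65066235 to 65209268) was counted 217 times in #1, 232 in #2, 239 in #3, against 266 in DA-5-3GFP. After scaling, these were 12.9, 13.1 and 13.3 CPM against 17.9 CPM. The subclones lay within 1.03-fold of each other, and DA-5-3GFP was above them. Its log2 fold change was -0.45 ± 0.31 (SE, 95% interval -1.18 to 0.29), and it did not pass the test (edgeR adjusted p = 0.337). The interval leaves room for a fall of more than a factor of 2 and for a small rise.

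Levels of both kinases can be compared per gene length, in the deposited FPKM. *Gsk3a* was at 88.6, 61.7 and 73.2 FPKM in #1, #2 and #3 and at 26.2 FPKM in DA-5-3GFP, and *Gsk3b* was at 6.30, 6.36 and 6.36 FPKM and at 8.66 FPKM. *Gsk3a* thus had the higher level in all 4 libraries. Its share of the summed FPKM of both kinases was 93.4%, 90.7% and 92.0% in the subclones and 75.1% in DA-5-3GFP, a difference of 16.9 percentage points between the mean of the subclones and DA-5-3GFP. The sum itself was 94.9, 68.1 and 79.5 FPKM in the subclones and 34.8 FPKM in DA-5-3GFP, so the subclones held on average 2.32 times as much GSK3 transcript per length. The share does not depend on how libraries are scaled, although it does depend on the listed gene lengths, and with 1 control library it was not tested.

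The scaffold genes did not pass the test. *Axin2* (ENSRNOG00000055010, plus strand of chromosome 10, 97212432 to 97239642) encodes a scaffold of the destruction complex and is a textbook target of beta-catenin, by which the pathway restrains itself. The counts were 361 in #1, 513 in #2, 471 in #3, against 330 in DA-5-3GFP, which are 21.5, 29.0 and 26.2 CPM against 22.2 CPM. The DA-5-3GFP value fell inside the range of the subclones. For *Axin2* the log2 fold change was 0.20 ± 0.32 (SE, 95% interval -0.55 to 0.96, edgeR adjusted p = 0.676), and its sign turned to -0.14 when each library was corrected for gene length. The interval excludes the 2.85-fold and 3.88-fold differences seen for *Gsk3a* and *Ctnnb1*.

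*Apc* (ENSRNOG00000020423, plus strand of chromosome 18, 27047382 to 27105531) encodes the large scaffold that binds beta-catenin and Axin. Only 74 counts were found in #1, 129 in #2, 156 in #3, against 56 in DA-5-3GFP, or 4.41, 7.30 and 8.68 CPM against 3.77 CPM. All subclones were above DA-5-3GFP, but #1 only narrowly, and the subclones spread over 1.97-fold. This gave a log2 fold change of 0.85 ± 0.52 (SE, 95% interval -0.39 to 2.09, edgeR adjusted p = 0.283). The interval held 0 and reached past a rise of 4-fold, so neither a difference nor its absence was shown.

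*Ctnnb1* (ENSRNOG00000054172), which encodes beta-catenin, is a plus-strand gene of chromosome 8 (129617812 to 129627372) with no overlapping gene in the table. Beta-catenin both carries the Wnt signal and links cadherins to actin at cell junctions. *Ctnnb1* had 6563 counts in #1, 8612 in #2, 7797 in #3, against 1677 in DA-5-3GFP, which are 391, 487 and 434 CPM against 113 CPM. The groups were far apart, since the lowest subclone was more than 3 times the DA-5-3GFP level while the subclones lay within 1.25-fold of each other. Their mean was 437 ± 48.0 CPM (SD, n = 3), 3.88 times the DA-5-3GFP level. The log2 fold change was 1.95 ± 0.26 (SE), with a 95% interval from 1.33 to 2.58 and an edgeR adjusted p of 0.0097. Of all genes tested, 88.0% had a lower log2 fold change than *Ctnnb1*, and 83.6% a lower one than *Gsk3a*. *Ctnnb1* was called in each of the 12 other settings tried, with log2 fold changes from 1.69 to 2.04 and an adjusted p of at most 0.0374, which was the value without #3.

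**Figure D2:**
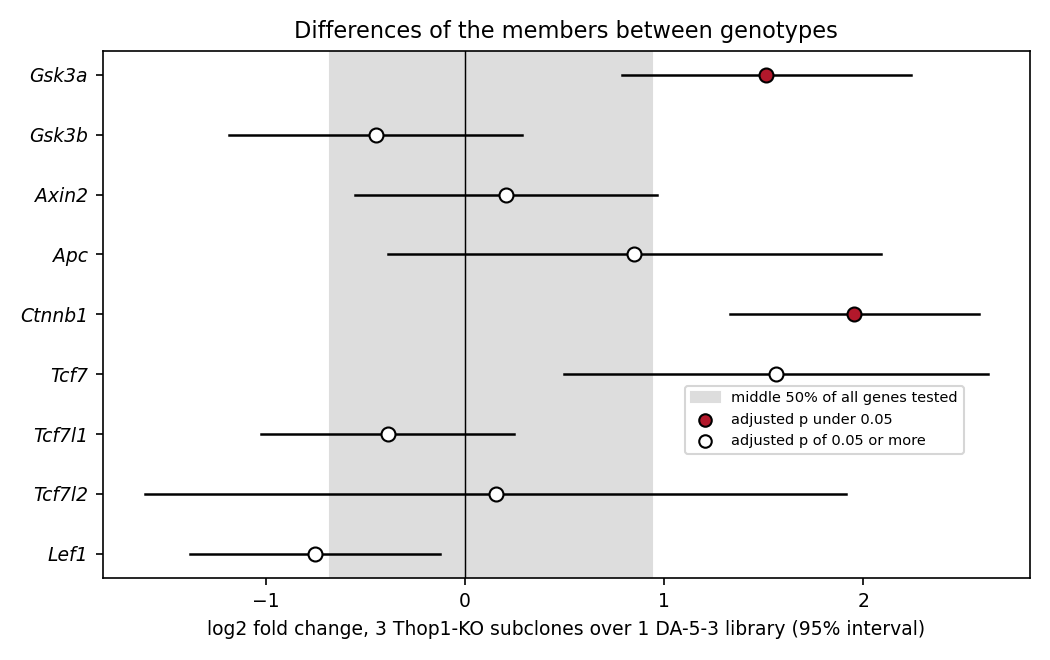
Log2 fold change of each gene (points) with its 95% interval (lines) from the edgeR fit, with filled points for an adjusted p under 0.05. The grey band holds all genes tested but the outer quartiles, from -0.68 to 0.94, and *Ctnnb1* at 1.95, *Tcf7* at 1.56 and *Gsk3a* at 1.51 lie to its right, while *Lef1* at -0.75 lies just to its left.

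None of the 4 genes of the TCF/LEF family, whose products bind DNA and recruit either beta-catenin or Groucho/TLE co-repressors, passed the test. *Tcf7l1*, which encodes the factor best known as a repressor in ESCs, is a minus-strand gene of chromosome 4 (ENSRNOG00000014753, 100491798 to 100660140). It had 1826 counts in #1, 2692 in #2, 2220 in #3, against 2491 in DA-5-3GFP, which are 109, 152 and 124 CPM against 168 CPM. DA-5-3GFP was the highest library, but #2 came close to it. For *Tcf7l1* the log2 fold change was -0.39 ± 0.27 (SE, 95% interval -1.02 to 0.25, edgeR adjusted p = 0.338).

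*Lef1* (ENSRNOG00000010121, plus strand of chromosome 2, 236233239 to 236345056) encodes a factor that acts mainly as an activator with beta-catenin. It had 711 counts in #1, 941 in #2, 767 in #3, against 1152 in DA-5-3GFP, or 42.4, 53.2 and 42.7 CPM against 77.5 CPM. DA-5-3GFP was above all 3 subclones, at 1.68 times their mean of 46.1 ± 6.17 CPM (SD, n = 3). The log2 fold change was -0.75 ± 0.26 (SE, 95% interval -1.38 to -0.12), with an unadjusted p of 0.0257 and an edgeR adjusted p of 0.1. *Lef1* passed as lower without #2 (adjusted p = 0.0117) and with the correction for gene length (log2 fold change -1.03, adjusted p = 0.0476). In these settings 2476 of 14704 and 962 of 15028 genes tested were called lower.

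*Tcf7* (ENSRNOG00000005872, minus strand of chromosome 10, 37617279 to 37645802) encodes TCF1, which is mostly an activator in ESCs. Its counts were 144 in #1, 155 in #2, 117 in #3, against 40 in DA-5-3GFP, which are 8.59, 8.77 and 6.51 CPM against 2.69 CPM. All subclones were above DA-5-3GFP, and their mean of 7.96 ± 1.25 CPM (SD, n = 3) was 2.96 times its level. Its log2 fold change was 1.56 ± 0.45 (SE, 95% interval 0.50 to 2.62), which is about that of *Gsk3a* but with a wider error, and the edgeR adjusted p was 0.0625. DESeq2 called *Tcf7* as higher (adjusted p = 0.0358), where 21.3% of all genes with an adjusted p were called. EdgeR without #2 called it higher too (adjusted p = 0.0203), where 3096 of 14704 genes tested were called higher.

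*Tcf7l2* (ENSRNOG00000049232, plus strand of chromosome 1, 276659542 to 276730514) encodes TCF4, a factor best known from the gut. It had 17 counts in #1, 22 in #2, 16 in #3, against 14 in DA-5-3GFP. These are about 1 CPM in every library, and the log2 fold change of 0.15 ± 0.74 (SE, 95% interval -1.61 to 1.91, edgeR adjusted p = 0.9) did not pass the test. The interval leaves room for a rise or a fall of more than 2-fold. With the correction for gene length its sign turned to -0.16.

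Within the family, *Tcf7l1* held the greatest share of the summed FPKM in every library, at 56.7%, 60.5% and 61.1% in #1, #2 and #3 and 58.3% in DA-5-3GFP, so DA-5-3GFP fell inside the range of the subclones. *Lef1* held 32.0%, 30.6% and 30.6% in the subclones and 39.1% in DA-5-3GFP. *Tcf7* held 10.8%, 8.39% and 7.77% in the subclones and 2.26% in DA-5-3GFP. The mean share of the subclones minus that of DA-5-3GFP was 6.72 percentage points for *Tcf7*, -8.01 for *Lef1* and 1.12 for *Tcf7l1*. From raw counts not divided by length, it was 3.30 points for *Tcf7* and -5.95 for *Lef1*. *Tcf7l2* made up at most 0.566% of the family in any library. In FPKM, *Tcf7* stood at 0.337, 0.274 and 0.254 of *Lef1* in the subclones and at 0.0578 of it in DA-5-3GFP. The summed FPKM of the family was 51.1, 66.6 and 52.7 in the subclones and 75.9 in DA-5-3GFP. These shares were not tested.

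**Figure D3:**
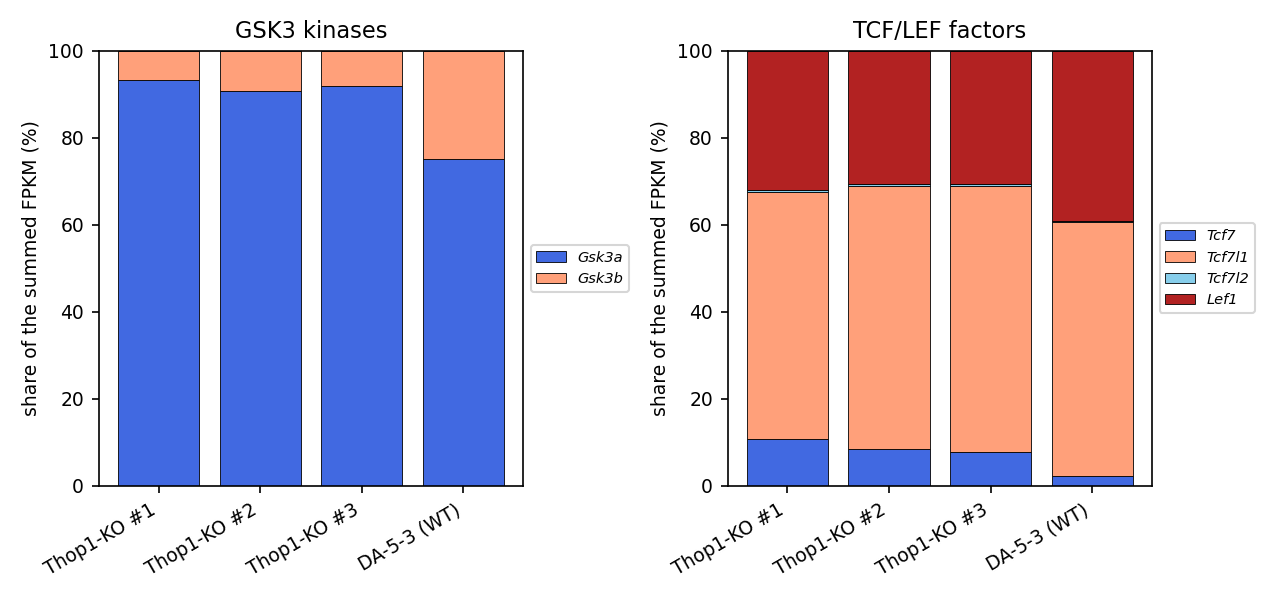
Share of each gene in the summed FPKM of the GSK3 kinases (left) and of the TCF/LEF factors (right), in percent, with 1 bar per library. *Gsk3a* takes 90.7% to 93.4% of the left bars in the subclones and 75.1% in DA-5-3GFP, and *Tcf7* takes 7.77% to 10.8% of the right bars in the subclones and 2.26% in DA-5-3GFP.

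Per gene length, *Ctnnb1* was the most abundant of the 9 genes in the subclones, at 162, 200 and 176 FPKM in #1, #2 and #3, ahead of *Gsk3a*. *Tcf7l1* followed at 28.9 to 40.2 FPKM and *Lef1* at 16.1 to 20.4 FPKM, and none of these 4 ranges overlapped. *Axin2* ranged from 5.36 to 7.18 FPKM, a range that held the values of *Gsk3b* and reached that of *Tcf7*, at 4.09 to 5.59 FPKM, so *Axin2* was not separated from either. *Apc* was at 0.496 to 0.958 FPKM and *Tcf7l2*, the lowest, at 0.249 to 0.353 FPKM. In the single DA-5-3GFP library the order was another one, with *Ctnnb1* at 46.3 FPKM and *Tcf7l1* at 44.3 FPKM nearly level, then *Lef1* at 29.7 FPKM and *Gsk3a* at 26.2 FPKM. The FPKM of *Ctnnb1* was thus 5.59, 4.97 and 5.46 times that of *Tcf7l1* in #1, #2 and #3 and 1.05 times in DA-5-3GFP.

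The sequences just before the RefSeq start sites are shown for the 2 genes that were called, for *Axin2* as the textbook target and for *Lef1* as the family member with the smallest p-value among those that were lower. They are RefSeq sequences of the GRCr8 build, 250 bases each, 5′ to 3′ on the strand of the gene, at chr1:89953515-89953764 (minus strand) for *Gsk3a*, chr8:129533887-129534136 (plus strand) for *Ctnnb1*, chr10:94398535-94398784 (plus strand) for *Axin2* and chr2:222340463-222340712 (plus strand) for *Lef1*. Capitals mark matches to the TCF/LEF core, searched as CTTTGA and CTTTGT on both strands, 2 forms that cannot match at the same place.
Gsk3a: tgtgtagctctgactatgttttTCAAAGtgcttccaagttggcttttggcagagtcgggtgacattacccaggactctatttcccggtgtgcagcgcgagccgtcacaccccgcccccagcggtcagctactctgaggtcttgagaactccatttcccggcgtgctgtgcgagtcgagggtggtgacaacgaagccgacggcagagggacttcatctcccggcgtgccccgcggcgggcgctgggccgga
Ctnnb1: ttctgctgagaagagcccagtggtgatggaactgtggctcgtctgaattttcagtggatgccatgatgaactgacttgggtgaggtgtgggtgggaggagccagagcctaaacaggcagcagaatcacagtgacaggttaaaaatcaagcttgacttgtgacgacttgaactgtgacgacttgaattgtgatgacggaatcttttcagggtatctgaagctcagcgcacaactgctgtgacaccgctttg
Axin2: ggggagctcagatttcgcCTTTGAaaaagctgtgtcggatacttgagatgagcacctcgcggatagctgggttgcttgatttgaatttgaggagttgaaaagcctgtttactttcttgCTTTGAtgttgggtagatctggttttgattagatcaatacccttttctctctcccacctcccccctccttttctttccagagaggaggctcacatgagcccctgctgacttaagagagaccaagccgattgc
Lef1: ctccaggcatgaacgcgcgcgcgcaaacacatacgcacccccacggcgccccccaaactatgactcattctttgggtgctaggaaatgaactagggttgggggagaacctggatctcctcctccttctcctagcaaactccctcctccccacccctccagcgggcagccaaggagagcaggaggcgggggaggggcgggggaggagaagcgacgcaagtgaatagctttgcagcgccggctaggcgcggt

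*Axin2* held the core at 232 and 132 bases before its start, both on the strand of the gene, and *Gsk3a* held 1 match on the opposite strand at 228 bases before its start. The windows of *Ctnnb1* and *Lef1* held none. Of the 9 genes, all of which had a promoter entry, 4 held at least 1 match (*Gsk3a*, *Axin2*, *Apc* and *Tcf7l1*), and 27.5% of all 33469 promoter windows of this length did. Of the called genes, 1 held a match and 1 did not. A match to 6 letters is a description of the sequence and not a site, and these libraries measured no binding.

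The rest of the pathway was described from a list of 112 genes by role, of which 108 were in the table. Tnks2 has 2 entries there, so 109 entries were looked up, and 73 of them passed the filter on low counts. Of these 73, 17 entries were called higher in the subclones and none lower, against 8.62% called higher and 5.17% called lower over all genes tested. The same shares are the background for the counts by role below. The list was chosen with earlier results of these data known, so an excess over these shares could not be tested with it. An unadjusted p-value under 0.05 was reached by 31, of which 3 were lower, against 5110 of all 15028 genes tested. DESeq2 called 24 higher and 1 lower, where 21.3% of all genes with an adjusted p were called. With the correction for gene length, 13 were called higher and 2 lower, where 1073 and 962 of all 15028 genes tested were. The median log2 fold change of the 73 was 0.58, against 0.06 over all genes tested, and it was 0.58 too when the 3 entries at 0 counts in DA-5-3GFP were set to their lower bounds. The 36 entries that did not pass had at most 10 counts in any library. The count of 17 changed with the libraries used, to 33 (30 higher and 3 lower) without #2 and 3 without #3, those 3 being entries of *Ep300*, *Fzd7* and *Tnks2*. Calls over all genes changed as well, from 2072 to 5572 without #2 and 457 without #3.

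Among Wnt ligands, 5 of 19 passed the filter, and *Wnt11*, a ligand known mainly for signalling outside the beta-catenin route, was called. It had 25 counts in #1, 64 in #2, 43 in #3, against 2 in DA-5-3GFP, a ratio of 18.7 with a 95% counting interval from 5.08 to 156. *Wnt3a*, the canonical ligand with the highest level per length of those tested, was at 33.7, 63.1 and 61.0 CPM in the subclones and 39.9 CPM in DA-5-3GFP, which fell inside their range. Of the 2 genes of Wnt secretion neither was called, and *Wls*, which carries Wnt proteins to the cell surface, was at 24.1, 50.2 and 32.7 CPM against 19.2 CPM.

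Of 12 receptor genes tested, *Fzd7* and *Lrp5* were called higher. *Fzd7*, a Frizzled receptor expressed in pluripotent cells, was at 69.6, 48.8 and 58.3 CPM in #1, #2 and #3 and 9.08 CPM in DA-5-3GFP, with a log2 fold change of 2.70 ± 0.36 (SE, edgeR adjusted p = 0.00972). *Lrp5*, a co-receptor of Frizzled, was at 24.4, 23.1 and 24.5 CPM against 4.84 CPM, with a log2 fold change of 2.31 ± 0.35 (SE, edgeR adjusted p = 0.0137). The subclones were nearly level for *Lrp5* and all far above DA-5-3GFP for both. The receptor gene *Ryk* was at 84.2, 62.8 and 56.7 CPM against 38.2 CPM and did not pass (edgeR adjusted p = 0.126). *Lgr4*, a receptor for R-spondins, was called, with a log2 fold change of 1.83 ± 0.44 (SE, edgeR adjusted p = 0.0409), a call lost in 5 of the 12 other settings.

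Of 10 secreted or surface inhibitors tested, 1 was called higher, near the 8.62% called higher over all genes tested. This was *Dkk3*, with 22, 17 and 15 counts in the subclones and 0 in DA-5-3GFP. Against a floor of 3 counts in that library it was at least 5.13-fold higher, and the call was lost in 5 of 11 other settings. *Sfrp1*, a secreted Wnt antagonist, was at 23.9, 24.0 and 20.4 CPM against 22.9 CPM, with a log2 fold change of -0.01 whose sign turned in 3 of the 12 other settings.

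All 3 Dishevelled genes, whose products relay the signal from Frizzled to the destruction complex, were above DA-5-3GFP in every subclone, and *Dvl3* was called. DA-5-3GFP lay below every subclone for 38.1% of all genes tested. *Dvl3* was at 70.9, 69.9 and 65.4 CPM in #1, #2 and #3 and 28.4 CPM in DA-5-3GFP (log2 fold change 1.28 ± 0.27 SE, edgeR adjusted p = 0.0293). *Dvl2* was higher in level per length but spread from 178 to 379 CPM among the subclones, against 125 CPM, and missed the threshold (edgeR adjusted p = 0.106).

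Of the 18 further entries linked to the destruction complex, 6 were called higher. Among them, *Tnks* and *Tnks2* encode tankyrases, which mark Axin for degradation. *Tnks* was at 27.5, 32.7 and 32.2 CPM in #1, #2 and #3 against 6.93 CPM (log2 fold change 2.15 ± 0.34 SE, edgeR adjusted p = 0.0152). The *Tnks2* entry on chromosome 1 had 69, 120 and 184 counts against 0, at least 34.9-fold higher against the floor of 3 counts. A second *Tnks2* entry, on an unplaced scaffold, had 73, 26 and 55 counts against 0, at least 14.7-fold higher, and reads of these copies may have been split between them. *Amer1*, which tethers APC and Axin to the membrane, was at 16.8, 36.5 and 25.2 CPM against 3.70 CPM, with a log2 fold change of 2.82 ± 0.56 (SE). *Csnk1g1*, a casein kinase 1 gene, and *Ppp2ca*, a catalytic subunit of protein phosphatase 2A, had log2 fold changes of 2.49 ± 0.47 and 1.89 ± 0.40 (SE). In contrast, *Ppp2r1a*, the scaffold subunit of that phosphatase and the most abundant of these genes per length, was at 490, 503 and 515 CPM against 601 CPM and was not called (edgeR adjusted p = 0.391). The other casein kinase 1 genes tested, *Csnk1a1*, *Csnk1d*, *Csnk1e*, *Csnk1g2* and *Csnk1g3*, were not called by edgeR either. *Csnk1a1* was at 123, 144 and 133 CPM in #1, #2 and #3 against 134 CPM in DA-5-3GFP.

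Of 16 nuclear cofactors tested, 5 were called higher. *Ep300*, which encodes the histone acetyltransferase p300, had 173 counts in #1, 187 in #2, 165 in #3, against 8 in DA-5-3GFP, with a log2 fold change of 4.20 ± 0.51 (SE, edgeR adjusted p = 0.00803). *Bcl9l* and *Pygo2*, whose products join beta-catenin in its transcription complex, had log2 fold changes of 2.41 ± 0.50 and 1.17 ± 0.28 (SE). *Cby1*, which encodes the beta-catenin antagonist Chibby, and *Tle5*, which encodes a short protein of the Groucho/TLE family, had 1.72 ± 0.40 and 1.02 ± 0.26 (SE). *Tle5* was at an edgeR adjusted p of 0.0498, and its call was lost in 4 of the 12 other settings.

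None of the 7 Wnt target genes tested outside the 9 genes was called in the fit of all libraries. In that fit, the log2 fold change was above 0 for 5 of the 7 and below 0 for 2. Without #2, 3 were called, *Rnf43* as higher and *Cdx2* and *Tnfrsf19* as lower (named after their values were seen). In that setting 5572 of all 14704 genes tested were called, 3096 as higher and 2476 as lower. *Rnf43* (named after its values were seen) had 51, 44 and 48 counts in #1, #2 and #3 against 9 in DA-5-3GFP. Its log2 fold change of 2.16 ± 0.64 (SE) did not pass (edgeR adjusted p = 0.0675). *Ccnd1*, which encodes cyclin D1, was at 511, 313 and 308 CPM in #1, #2 and #3 and 329 CPM in DA-5-3GFP, so #1 alone stood apart. Its log2 fold change was 0.20 ± 0.34 (SE, edgeR adjusted p = 0.705), and it was -0.07 without #1 and -0.12 with the correction for gene length. Together with *Axin2*, *Lef1* and *Tcf7*, which are Wnt targets as well, 0 of 10 target genes were called by edgeR, against 13.8% of all genes tested. An unadjusted p under 0.05 was reached by 3 of the 10 (2 higher and 1 lower), against 5110 of all 15028 genes tested. Of these 10, edgeR called 5 without #2 and 1, *Lef1*, with the correction for gene length, and DESeq2 called 1, *Tcf7*. Over all genes tested, edgeR called 5572 of 14704 and 2035 of 15028 in these settings, and DESeq2 called 21.3%.

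**Figure D4:**
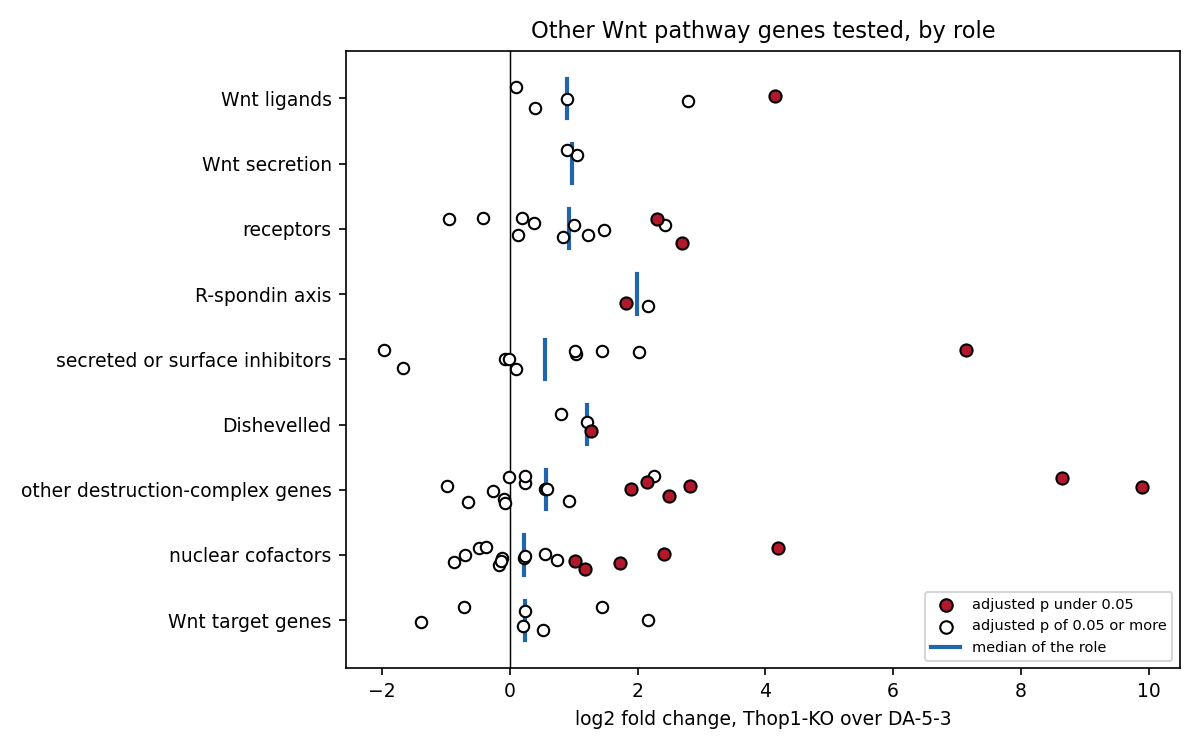
Log2 fold change of the 73 further pathway entries tested, by role (points, shifted vertically for legibility), with filled points for an edgeR adjusted p under 0.05 and a vertical bar at the median of each role. All 17 filled points lie to the right of 0, and the 3 beyond 6 are entries with 0 counts in DA-5-3GFP (*Dkk3* and both entries of *Tnks2*), whose fitted value depends on the prior count.

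Of 4 genes known to be repressed by TCF7L1 in mouse ESCs, 2 were higher in the subclones and 2 were not called, where 8.62% of all genes tested were called higher. The 4 genes were chosen with earlier results of these data known, and the study had itself reported *Esrrb* as up-regulated in *Thop1*-KO cells. Relief of repression by TCF7L1 was therefore not tested. *Esrrb* and *Tfcp2l1*, transcription factor genes of the naive network, had log2 fold changes of 4.30 ± 0.30 and 2.89 ± 0.28 (SE). *Klf2*, another factor gene of that network, was at 1913, 1603 and 2386 CPM in #1, #2 and #3 and 2214 CPM in DA-5-3GFP, inside the range of the subclones. *Nanog* was at 334, 494 and 384 CPM against 468 CPM, also inside it, and overlaps a gene on the opposite strand. The log2 fold changes of *Klf2* and *Nanog* were -0.17 ± 0.25 and -0.21 ± 0.27 (SE).

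Markers of other cell types were looked at beside these differences. Of 8 feeder fibroblast markers in the table, 5 were tested and none was called by edgeR. An unadjusted p under 0.05 was reached by 3 of the 5, against 5110 of all 15028 genes tested. For all 5 markers the DA-5-3GFP value was below every subclone, as it was for 38.1% of all genes tested. Their summed level was 325, 648 and 416 CPM in #1, #2 and #3 and 199 CPM in DA-5-3GFP, most of it *Col1a1*, while *Thy1*, *Dcn* and *Lum* were at 0 counts in all libraries. Among the subclones, #2 had the highest fibroblast sum, the highest *Ctnnb1* level and the lowest *Gsk3a* level. A link between these ranks was not tested over 3 subclones. The markers of primitive endoderm summed to 5.07 to 7.39 CPM in the subclones and 3.03 CPM in DA-5-3GFP, those of mesoderm to 13.6 to 24.8 CPM and 10.6 CPM, and those of neural cells to 122 to 289 CPM and 310.5 CPM. None of the 5 primitive endoderm and 2 mesoderm markers tested was called by edgeR, and 3 and 0 of them had an unadjusted p under 0.05. Of these 3, *Sox17* and *Dab2* were higher in the subclones. *Gata4* was lower, with 3 counts in #1, 0 in #2 and 3 in #3, against 17 in DA-5-3GFP. The mesoderm marker *Tbxt*, which was not tested, had 0 counts in every subclone and 10 in DA-5-3GFP. The neural sum was almost all *Tubb3*, which was not called. *Nes*, which encodes the neural progenitor filament nestin and is named here after its values were seen, had 6 counts in #1, 13 in #2 and 3 in #3, against 126 in DA-5-3GFP. It was lower in the subclones, with a log2 fold change of -4.31 ± 0.68 (SE, edgeR adjusted p = 0.0147). The part of these markers in the differences above was not tested.

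Fold changes also followed gene length. The median log2 fold change rose from -0.47 in the fifth of tested genes that are shortest to 0.38 in the fifth that are longest, and was 0.10 in the middle one, which holds *Ctnnb1*, *Gsk3a* and *Gsk3b*. With each library corrected for length, which moved the median of all genes by -0.21, the log2 fold changes were 1.69 ± 0.26 (SE, edgeR adjusted p = 0.015) for *Ctnnb1* and 1.27 ± 0.31 (SE, edgeR adjusted p = 0.0442) for *Gsk3a*. Both calls thus held within the length correction.

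**Figure D5:**
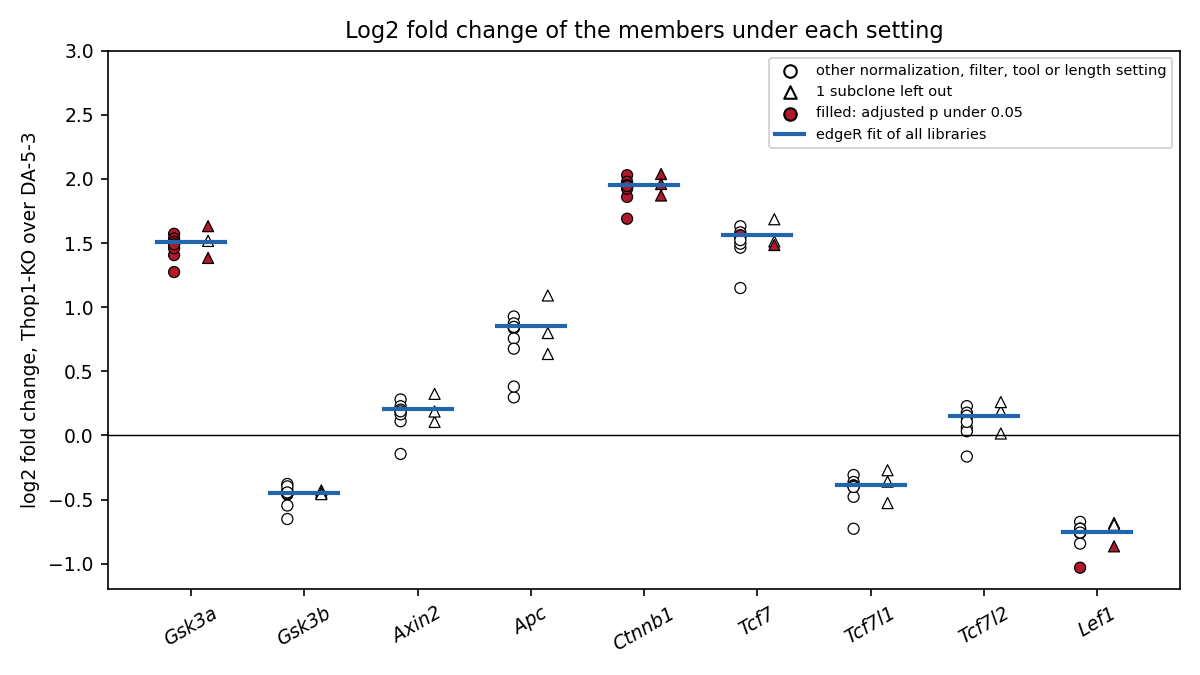
Log2 fold change of each gene under each setting, as circles for another normalization, filter, tool or length setting and triangles for 1 subclone left out, with filled symbols for an adjusted p under 0.05 and a bar at the value of the edgeR fit to all libraries. *Ctnnb1* is filled throughout, *Gsk3a* is filled in all but 1 setting, *Tcf7* and *Lef1* are filled in 2 each, and *Axin2* and *Tcf7l2* cross 0 in the length setting.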

How the data were processed

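RNA-seq of 4 rat ESC libraries was analysed, 3 from *Thop1*-KO subclones and 1 from DA-5-3GFP, grouped by the genotype in the labels. The authors deposited raw counts per gene, with totals from 15405499 to 17936544. Their FPKM values, also deposited, are those counts over gene length and over a library factor proportional to the size factor of DESeq2. HISAT2 2.0.5 and featureCounts 1.5.0-p3 are listed in the submitters' processing notes. The genome build and the strand setting are not given in the sources used here, and coordinates are those of the deposited annotation.

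Counts were fitted with edgeR 4.0.16 in R 4.3.3 (TMM, filterByExpr with a minimum count of 10, quasi-likelihood test, Benjamini-Hochberg adjustment over all genes tested), and a gene was called at an adjusted p-value under 0.05. SE is the log2 fold change divided by the root of F. Counting intervals and the floor of 3 counts cover counting error only. Alternatives were 3 scalings, 2 count filters, DESeq2 1.42.0, limma 3.58.1 on log2 FPKM with a pseudocount of 1 or 0.1, a loess for gene length (span 0.3), leaving out each subclone, and an unadjusted p under 0.05 with a fold of 2 for counts of calls. The study's methods state DESeq2 at an adjusted p under 0.05. Its plot of the MAPK, GSK3 and JAK-STAT pathways instead gives a fold change of 2 and a p under 0.05. From that plot the study reported differentially expressed genes in the MAPK pathway but not in the other pathways. Its text does not list the GSK3 genes it looked at. With edgeR's unadjusted p and that fold, *Ctnnb1*, *Gsk3a* and *Tcf7* passed here, as did 4040 of all 15028 genes tested. Scripts were tested on simulated data. Figures were drawn with matplotlib 3.10.9.

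The genes were given by name. Named beside them were the pathway genes that were called, the gene tested with the highest mean FPKM in each role, 4 genes known to be repressed by TCF7L1, and *Thop1*. The genes, roles and marker lists were chosen with earlier results of these data known. Likeness of pattern was not computed over 4 libraries.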

Additional observations from a re-analysis of the deposited data

How the results depend on the processing

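The 9 genes gave 2 calls, and 2 or 3 under each change of normalization, filter, tool, length or threshold tried. Leaving out a subclone gave 1 to 4 calls: *Ctnnb1* alone without #3, and *Tcf7* and *Lef1* besides *Ctnnb1* and *Gsk3a* without #2. Over all genes, 2072 calls became 457 to 5572 with a subclone left out and 4040 with an unadjusted p under 0.05 and a fold of 2. DESeq2 called 3000 genes. The 17 calls of the wider pathway became 3 to 33 with a subclone left out, 26 with the unadjusted rule, 25 with DESeq2 and 12 with at least 10 counts in every library, where genes near 0 in DA-5-3GFP are not tested. From raw counts not divided by length, the share of *Tcf7* differed by 3.30 and that of *Lef1* by -5.95 percentage points.

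Signs turned in 7 values of the named genes: with the length correction for *Axin2* (-0.14), *Tcf7l2* (-0.16) and *Ccnd1* (-0.12), for *Ccnd1* with a subclone left out (-0.0709 without #1 to 0.3259), and for *Sfrp1* with library size only (0.0582), without a count filter (0.0113) and with a subclone left out (-0.053 to 0.0616 without #3). Of the others, 395 kept their side of the threshold, 31 lost a call and 7 gained one. Except where a setting tests fewer genes or samples, the cause was not tested. No paired analysis was possible because DA-5-3GFP has 1 library and its label carries no replicate number. *Apc*, *Tcf7* and *Tcf7l2* had at most 156 counts in a library, and the part of depth in their results was not tested.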
